A study of Mus musculus with 12 samples.

Results

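The genes described here control apoptosis in bone marrow-derived macrophages (BMDMs). They were chosen by name, as the probe sets annotated to 1 symbol each among 9 listed genes: the survival proteins Mcl1, Bcl2 and Bcl2l1, the BH3-only proteins Bcl2l11, Bbc3 and Pmaip1, the pore-forming Bax, the initiator caspase gene Casp8, and its regulator Cflar. Of these 9 genes 8 were measured, with 28 of the 34945 probe sets that carried 1 symbol, and 8 of 18193 genes in all. Bax was not analysed here. RNA was hybridized to GeneChip Mouse 430 2.0 arrays, 12 in all. Signals below are log2 values after quantile normalization with 16 added to each signal, and a log2 difference on this scale understates the change of a dim gene.

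All cells came from female C57BL/6 mice whose Trsp alleles, encoding the selenocysteine tRNA that every selenoprotein needs, were both floxed. ΔTrspM mice (Trspfl/fl-LysM-Cre+/-) also carried Cre under the LysM promoter, which is active in macrophages and other myeloid cells, and control mice (Trspfl/fl-LysM-Cre-/-) carried the floxed alleles without Cre. Bone marrow cells were grown for 7 days with M-CSF and were then stimulated with LPS for 4 h or left unstimulated. This gave 4 groups of 3 arrays: LPS-stimulated ΔTrspM, LPS-stimulated control, unstimulated ΔTrspM and unstimulated control BMDMs. The labels call the 3 arrays of a group biological replicates and do not say whether each came from its own mouse. The dose of LPS on the arrays was not given in the sources used here. Lyz2, the gene whose promoter drives Cre, averaged 13.78 in ΔTrspM and 13.33 in control BMDMs after LPS, and 13.65 in ΔTrspM and 13.41 in control BMDMs without it.

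The BCL2 family decides whether the outer membrane of the mitochondrion is opened. Survival proteins such as BCL2, BCL-XL and MCL1 hold the pore-forming proteins BAX and BAK in check, and BH3-only proteins such as BIM, PUMA and NOXA release or activate them. Death receptors act by another route, through caspase-8, and c-FLIP, the product of Cflar, blocks that caspase at the receptor. In macrophages LPS acts through TLR4 and turns on both NF-kB-driven survival genes and signals that can kill the cell.

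The arrays differed in overall brightness. The mean deposited signal was 199.7 to 675 in LPS-stimulated ΔTrspM, 492 to 861 in LPS-stimulated control, 575 to 847 in unstimulated ΔTrspM and 734 to 771 in unstimulated control BMDMs. LPS-stimulated ΔTrspM replicate 2 stood apart, with 47.7% of its probe sets under a signal of 16, against 16.1 to 28.8% on the other arrays. The LPS label was borne out by Tnf, which was higher after LPS by 3.57 in ΔTrspM and 3.93 in control BMDMs on the log2 scale, and by Il1b, higher by 6.55 and 5.22. Before LPS, replicate 2 had the highest Tnf, Il1b, Cxcl1 and Cxcl2 signals of its group in both genotypes, with Il1b at 10.30 in control replicate 2 against 8.11 and 7.09 in the other control arrays. The 8 macrophage markers had summed linear signals of 62899 to 74341 over all 12 arrays. The dimmest of them, Mertk, averaged 9.39 to 9.97 on the log2 scale in the 4 groups. The 7 stromal markers summed to 2820 to 8456 in LPS-stimulated ΔTrspM, 3921 to 4637 in LPS-stimulated control, 806 to 7415 in unstimulated ΔTrspM and 438 to 7017 in unstimulated control BMDMs. Among them Pdgfrb rose after LPS by 2.99 in ΔTrspM and 4.45 in control BMDMs on the log2 scale. The changes of the other stromal markers lay between -0.03 and 1.09 in ΔTrspM and between -0.52 and 0.72 in control BMDMs. The 5 neutrophil markers measured summed to 6060 to 14059 on the LPS arrays and 3705 to 9383 on the unstimulated arrays, and the 5 dendritic markers to 237 to 609 on the LPS arrays and 108 to 178 on the unstimulated arrays. The 5 lymphoid markers measured summed to 195 to 696 over all 12 arrays. The dendritic genes Flt3, Xcr1 and Siglech averaged 4.99 to 5.88 in every group, near the lowest value of 4 that the scale allows. Of the other dendritic markers, Ccr7 averaged 8.01 in LPS-stimulated and 5.09 in unstimulated ΔTrspM BMDMs, and 7.11 in LPS-stimulated and 4.68 in unstimulated control BMDMs. Zbtb46 averaged 6.49 in LPS-stimulated and 5.95 in unstimulated ΔTrspM BMDMs, and 6.49 in LPS-stimulated and 5.13 in unstimulated control BMDMs. The part of these markers in the results below was not tested. In such bulk samples fewer cells of a type and less RNA per cell cannot be told apart.

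The first question was how LPS changed the 8 genes in each genotype. After LPS, Cflar rose and Bcl2 fell in both ΔTrspM and control BMDMs, and Bbc3 rose in ΔTrspM BMDMs, a call that held in 4 of 12 fits that left out an array and whose sign turned with no scaling. Bcl2l11 was not called on its brightest probe set, but 4 of its 5 probe sets were called higher in both genotypes. In ΔTrspM BMDMs 2 of 8 genes were called higher and 1 lower, against 7.29% of all 18193 genes called higher and 8.51% called lower. In control BMDMs 1 was called higher and 1 lower, against 7.09% higher and 8.54% lower. A call is a Benjamini-Hochberg adjusted p under 0.05 in limma over all genes. The median log2 change of the 8 genes was 0.41 in ΔTrspM and 0.46 in control BMDMs, beside -0.03 and -0.05 over all genes. Both comparisons gave 5 of 8 genes an unadjusted p under 0.05, as did 5185 and 5115 of 18193 genes. In ΔTrspM BMDMs the balance of calls over all genes moved with scaling: it was 1326 higher and 1548 lower here, 1303 and 2648 with arrays centred on their medians, and 262 and 3063 with no scaling.

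**Figure D1:**
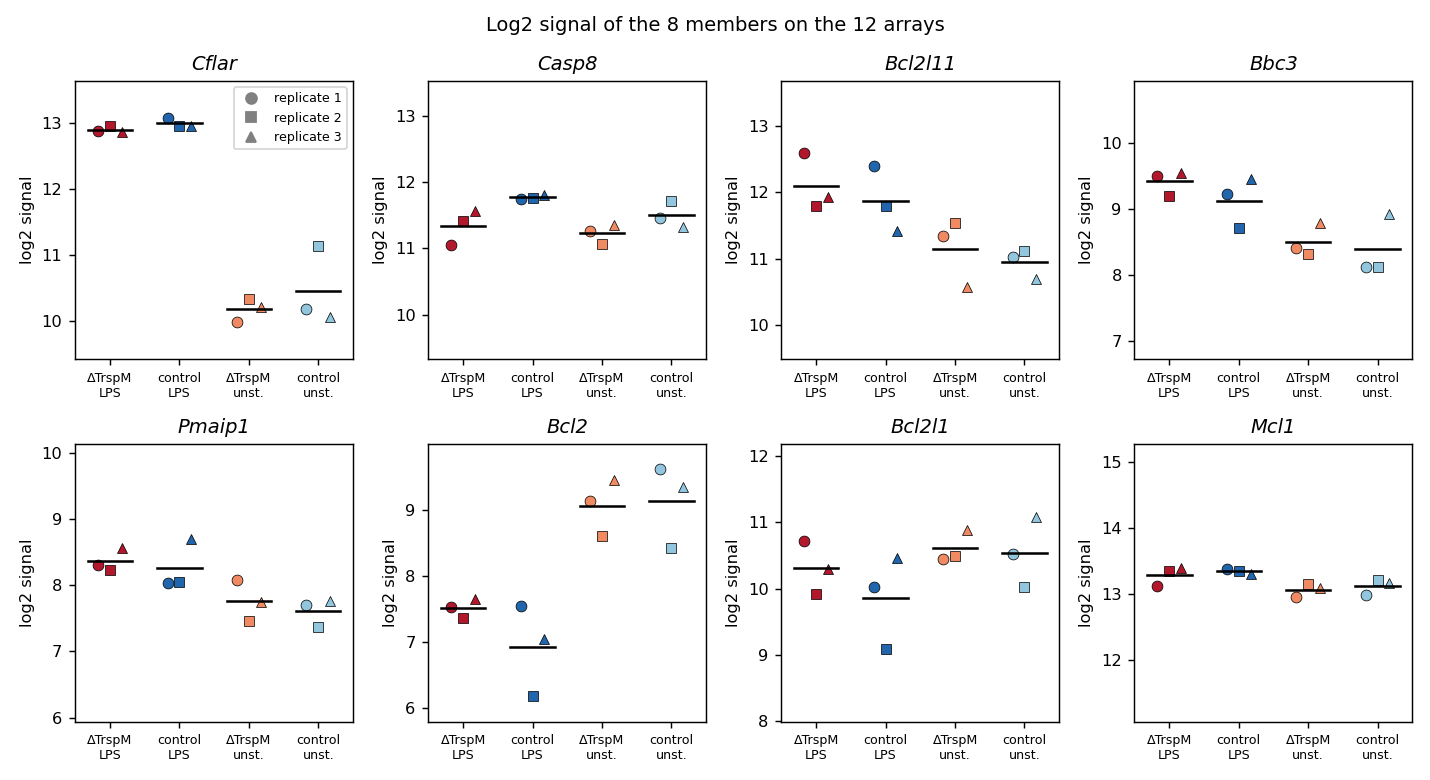
Log2 signal (y axis) of the 8 measured genes on each of the 12 arrays by group (x axis), with symbols for replicates and a bar at the group mean. Cflar after LPS lay at 12.87 to 13.08, above all unstimulated arrays, and Bcl2 after LPS lay at 6.18 to 7.66, below all unstimulated arrays.

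Cflar, the inhibitor of caspase-8 at death receptors, had the largest change of the 8 genes. Its log2 signal was 12.88, 12.96 and 12.87 in LPS-stimulated ΔTrspM BMDMs and 9.99, 10.34 and 10.22 in unstimulated ΔTrspM BMDMs. Control BMDMs had 13.08, 12.95 and 12.95 after LPS and 10.19, 11.14 and 10.07 without it. The arrays of stimulated and unstimulated cells did not overlap in either genotype, and unstimulated control replicate 2 was the highest of the 6 unstimulated arrays, as it was for Il1b. Cflar rose by 2.72 on the log2 scale in ΔTrspM BMDMs (SE 0.26, 95% interval 2.15 to 3.29, adjusted p = 7.86e-05 in limma, n = 3 arrays a group), a change of 6.58-fold, in 3 of 3 pairs of same-numbered arrays. In control BMDMs it rose by 2.53 (SE 0.26, interval 1.95 to 3.10, adjusted p = 0.000104 in limma), or 5.76-fold, again in 3 of 3 pairs, and by 2.90 without unstimulated control replicate 2. Where arrays do not overlap, 3 of 3 pairs follows from that and adds no support, here and below. The call of Cflar held in each genotype whichever of the 12 arrays was left out. Of its 5 probe sets 4 were called in both genotypes, all higher, and the dimmest, with changes of 1.20 in ΔTrspM and 0.95 in control BMDMs, was not.

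The 250 bases before the RefSeq start of Cflar (GRCm38.p6, chr1:58711241-58711490, plus strand, 5′ flank of the gene) are shown with each CG dinucleotide in capitals. They are shown because this flank and that of Bcl2 lie far apart in base composition. Whether base composition goes with the change after LPS was not tested.
Cflar: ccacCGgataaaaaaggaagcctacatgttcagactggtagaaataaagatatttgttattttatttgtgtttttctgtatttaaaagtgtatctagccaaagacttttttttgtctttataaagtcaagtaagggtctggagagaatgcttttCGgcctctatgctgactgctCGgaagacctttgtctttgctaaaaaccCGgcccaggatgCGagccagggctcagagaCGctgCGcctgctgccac
It held 42.8% G and C and 7 CG dinucleotides, beside a median of 52.4% and 6 over the 32851 mouse promoters in the RefSeq table.

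Bcl2, the founding survival protein of the family, was the only one of the 8 called lower. Its log2 signal was 7.53, 7.37 and 7.66 in LPS-stimulated ΔTrspM BMDMs and 9.12, 8.61 and 9.44 in unstimulated ΔTrspM BMDMs. Control BMDMs were at 7.55, 6.18 and 7.04 after LPS and 9.61, 8.42 and 9.35 without it. Every stimulated array lay below every unstimulated one, and replicate 2 was the lowest of its group in all 4 groups. Bcl2 fell by 1.54 in ΔTrspM BMDMs (SE 0.39, 95% interval -2.39 to -0.69, adjusted p = 0.0200 in limma, n = 3 arrays a group) and fell by 2.20 in control BMDMs (SE 0.39, interval -3.05 to -1.36, adjusted p = 0.00286 in limma), in 3 of 3 pairs in each. The call in ΔTrspM BMDMs was lost without unstimulated ΔTrspM replicate 1 or 3 or LPS-stimulated ΔTrspM replicate 2 (adjusted p = 0.0648, 0.0765 and 0.0645 in limma), and in control BMDMs it held whichever of the 12 arrays was left out. By the methods' t-test after adjustment it was called in neither. All 5 Bcl2 probe sets were lower after LPS with no overlap of arrays in each genotype, with log2 changes of -1.82 to -1.15 in ΔTrspM and -2.20 to -1.38 in control BMDMs, and 3 and 4 of them were called. After LPS the 4 dimmer probe sets averaged 4.80 to 6.33 over the 2 genotypes. The lowest value the scale allows is 4, which limits the size of fall they can show.

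The flank of Bcl2 (GRCm38.p6, chr1:106714291-106714540, minus strand, printed 5′ to 3′ on the strand of the gene, CG in capitals) held 74.8% G and C and 36 CG dinucleotides, more G and C than 95.8% of the 32851 promoters.
Bcl2: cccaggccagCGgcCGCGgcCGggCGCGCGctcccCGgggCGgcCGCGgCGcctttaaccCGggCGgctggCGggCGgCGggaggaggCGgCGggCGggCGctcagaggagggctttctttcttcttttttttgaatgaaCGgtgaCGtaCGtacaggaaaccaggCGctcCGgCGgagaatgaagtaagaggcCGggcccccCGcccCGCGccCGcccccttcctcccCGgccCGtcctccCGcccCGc
The RefSeq table held 13 promoters of the listed genes, at 8 genes, and none of Pmaip1. Among the other genes measured, the flanks of Bcl2l11 and Bbc3 held 72 to 81.6% G and C, that of Mcl1 64.4%, those of Bcl2l1 47.6 to 53.2% and that of Casp8 39.6%.

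Bcl2l11 encodes BIM, a BH3-only protein that binds all the survival proteins. On its brightest probe set the log2 signal was 12.59, 11.80 and 11.92 in LPS-stimulated ΔTrspM BMDMs and 11.34, 11.54 and 10.58 in unstimulated ΔTrspM BMDMs. The control signals were 12.41, 11.79 and 11.42 after LPS and 11.02, 11.11 and 10.70 without it. Arrays did not overlap in either genotype, and replicate 1 was the highest array after LPS in both. The log2 difference on this probe set was 0.95 in ΔTrspM (interval 0.23 to 1.68, adjusted p = 0.0765 in limma) and 0.93 in control BMDMs (interval 0.20 to 1.65, adjusted p = 0.0845), higher in 3 of 3 pairs in each, and was not called. With the replicate number as a block both were called (adjusted p = 0.0193 in ΔTrspM and 0.0215 in control BMDMs in limma).

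The 4 other Bcl2l11 probe sets were called higher in both genotypes when each of the 34945 probe sets was tested on its own. The one with the largest change read 10.04, 10.44 and 10.28 in LPS-stimulated ΔTrspM BMDMs and 7.58, 7.98 and 7.98 in unstimulated ΔTrspM BMDMs. In control BMDMs it read 10.06, 10.44 and 10.32 after LPS and 7.96, 8.49 and 7.50 without it. The gap between stimulated and unstimulated arrays was wide in both genotypes, and the log2 change was 2.40 in ΔTrspM BMDMs (adjusted p = 0.000217 in limma) and 2.29 in control BMDMs (adjusted p = 0.000268). The other 3 rose by 1.01, 1.03 and 1.25 in ΔTrspM and by 1.29, 1.49 and 1.82 in control BMDMs. With the mean of all 5 probe sets in place of the brightest, Bcl2l11 rose by 1.33 in ΔTrspM BMDMs (adjusted p = 0.000726 in limma) and 1.56 in control BMDMs (adjusted p = 0.000216). Which transcripts each probe set reads was not given in the sources used here. Over all genes 12.9% of the 34945 probe sets were called after LPS in ΔTrspM and 13% in control BMDMs, beside 11 of the 28 probe sets described here in ΔTrspM (8 higher, 3 lower) and 12 of 28 in control BMDMs (8 higher, 4 lower), all of them of Cflar, Bcl2l11 and Bcl2.

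**Figure D2:**
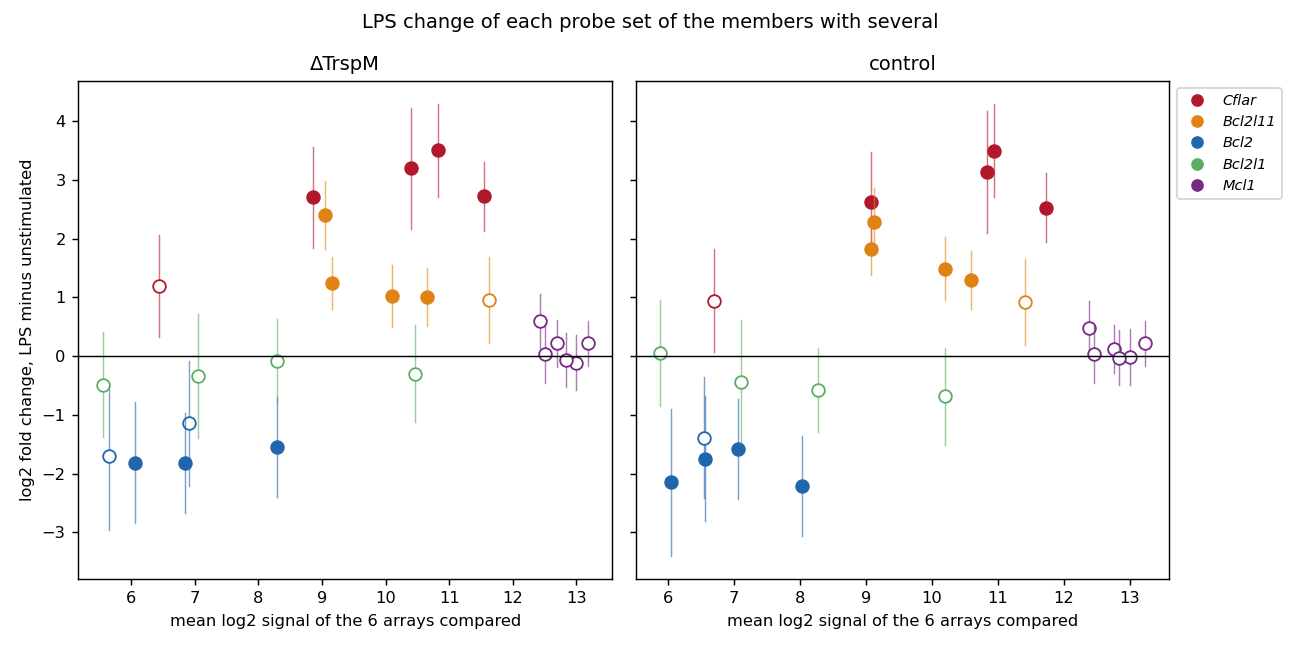
Log2 change after LPS with its 95% interval (y axis) against the mean log2 signal of the 6 arrays compared (x axis) for each probe set of the 5 genes with several, in ΔTrspM (left) and control BMDMs (right), with filled points at an adjusted p under 0.05. The Bcl2l11 probe set with the brightest signal is the only 1 of its 5 that is open, and all 6 of Mcl1 are open, between -0.11 and 0.59 in ΔTrspM and between -0.02 and 0.49 in control BMDMs.

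Bbc3 and Pmaip1 encode PUMA and NOXA, BH3-only proteins known as targets of p53. Bbc3 was at 9.50, 9.20 and 9.55 in LPS-stimulated ΔTrspM BMDMs and at 8.40, 8.32 and 8.78 in unstimulated ΔTrspM BMDMs. Control signals were 9.23, 8.71 and 9.45 after LPS and 8.12, 8.13 and 8.93 without it. Stimulated arrays lay above unstimulated ones in ΔTrspM BMDMs, and in control BMDMs unstimulated replicate 3 overlapped the stimulated arrays. Bbc3 rose by 0.91 in ΔTrspM BMDMs (SE 0.28, 95% interval 0.31 to 1.52, adjusted p = 0.0453 in limma, 3 of 3 pairs). This call rested on the choice of setting: it held in 4 of 12 fits that left out an array, being lost without each LPS-stimulated or unstimulated ΔTrspM array or replicate 1 of either control group, and with arrays centred on their medians the difference was 0.34 (adjusted p = 0.475), and with no scaling it was -0.37. In control BMDMs the difference was 0.74 (interval 0.13 to 1.34, adjusted p = 0.1004 in limma, 3 of 3 pairs). It was called with the replicate number as a block (adjusted p = 0.0197) and without unstimulated control replicate 3, where it was 1.01 (adjusted p = 0.0361 in limma).

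Pmaip1 averaged 8.37 ± 0.17 in LPS-stimulated ΔTrspM and 7.76 ± 0.31 in unstimulated ΔTrspM BMDMs, and 8.26 ± 0.38 in LPS-stimulated control and 7.61 ± 0.21 in unstimulated control BMDMs (SD, n = 3 each). Arrays did not overlap in either genotype, with all stimulated ones the higher. The difference was 0.61 in ΔTrspM (interval 0.07 to 1.14, adjusted p = 0.122 in limma) and 0.65 in control BMDMs (interval 0.12 to 1.19, adjusted p = 0.0978), and in control BMDMs it was called with the replicate number as a block (adjusted p = 0.0430). With the block, 5 of 8 genes were called in control BMDMs in place of 2: Cflar, Bcl2l11, Bbc3 and Pmaip1 higher and Bcl2 lower. Calls over all 18193 genes in control BMDMs also rose with the block, from 1290 higher and 1554 lower to 1664 and 2444.

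**Figure D3:**
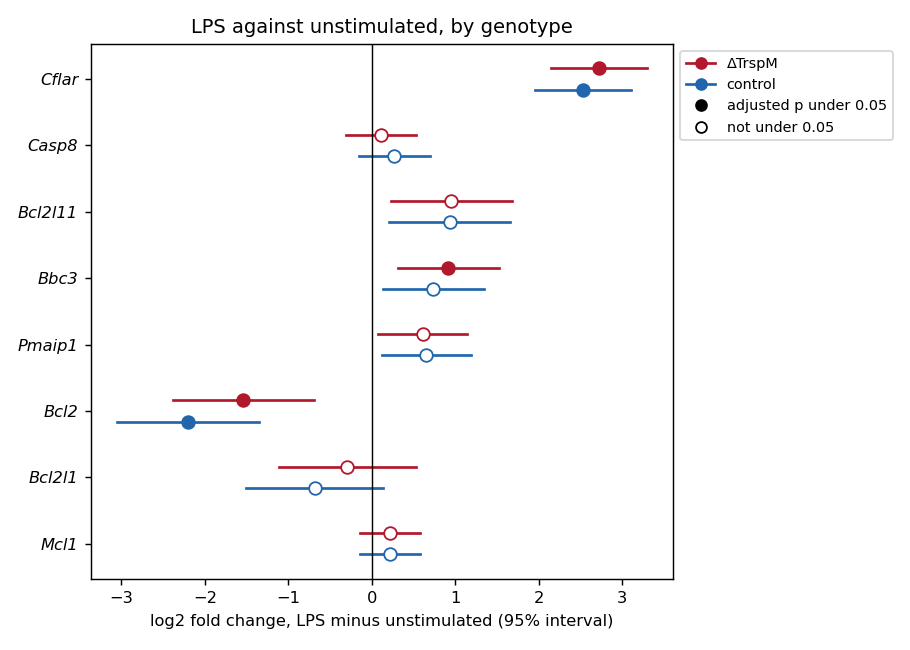
Log2 change after LPS with its 95% interval (x axis) of the 8 genes (rows) in ΔTrspM and control BMDMs, with filled points at an adjusted p under 0.05. Cflar lies at 2.72 and 2.53 and Bcl2 at -1.54 and -2.20, on opposite sides of 0, and Bbc3 is filled in ΔTrspM BMDMs alone, a contrast between genotypes that was not called when tested.

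Mcl1, a short-lived survival protein, was bright in every group and was not called after LPS. It averaged 13.28 ± 0.15 in LPS-stimulated ΔTrspM and 13.07 ± 0.11 in unstimulated ΔTrspM BMDMs, and 13.35 ± 0.04 in LPS-stimulated control and 13.13 ± 0.12 in unstimulated control BMDMs (SD, n = 3 each). The difference was 0.22 in each genotype, with intervals of -0.14 to 0.58 in both (adjusted p = 0.438 in ΔTrspM and 0.435 in control BMDMs in limma). None of its 6 probe sets was called, with differences of -0.11 to 0.59 in ΔTrspM and -0.02 to 0.49 in control BMDMs. The highest of these came from 1 probe set, with intervals that left out 0 in both genotypes (0.14 to 1.05 in ΔTrspM, adjusted p = 0.0896 in limma, and 0.03 to 0.95 in control BMDMs, adjusted p = 0.164), and arrays did not overlap on 2 of the 6 in each genotype. None of the 3 genes on the list that act on the turnover of the MCL1 protein, the ligase genes Fbxw7 and Huwe1 and the deubiquitinase gene Usp9x, was called after LPS in either genotype.

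Bcl2l1, whose main product is BCL-XL, averaged 10.31 ± 0.40 in LPS-stimulated ΔTrspM and 10.61 ± 0.24 in unstimulated ΔTrspM BMDMs, and 9.86 ± 0.70 in LPS-stimulated control and 10.54 ± 0.53 in unstimulated control BMDMs (SD, n = 3 each). The arrays overlapped in both genotypes. The difference was -0.30 in ΔTrspM (interval -1.12 to 0.53, adjusted p = 0.666 in limma) and -0.68 in control BMDMs (interval -1.51 to 0.14, adjusted p = 0.265), and none of 4 probe sets was called. These intervals leave room for a fall of more than 1 on the log2 scale in each genotype.

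Casp8 encodes the initiator caspase that death receptors recruit and that c-FLIP blocks. Its log2 signal was 11.05, 11.41 and 11.56 in LPS-stimulated ΔTrspM BMDMs and 11.27, 11.07 and 11.36 in unstimulated ΔTrspM BMDMs. In control BMDMs it was 11.75, 11.76 and 11.81 after LPS and 11.47, 11.72 and 11.33 without it. The stimulated control arrays lay within a narrow band above the unstimulated ones, while the ΔTrspM arrays overlapped. The difference after LPS was 0.11 in ΔTrspM (interval -0.32 to 0.53, adjusted p = 0.771 in limma) and 0.27 in control BMDMs (interval -0.16 to 0.69, adjusted p = 0.414). Cflar and Casp8 both start on the plus strand of chromosome 1 in the RefSeq table, and on these arrays the first was called after LPS in each genotype and the second in neither.

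The second question was whether loss of Trsp changed these genes. None of the 8 was called between ΔTrspM and control BMDMs, with or without LPS. Over all genes 0.011% were called after LPS, 2 genes that are not among the 8, and 0% without it. Differences between ΔTrspM and control without LPS ranged from -0.29 for Cflar to 0.21 for Bcl2l11, with a median of 0.003 beside 0.04 over all genes, and 0 of 8 had an unadjusted p under 0.05, against 435 of 18193 genes. After LPS they ranged from -0.43 for Casp8 to 0.59 for Bcl2, with a median of 0.17 beside 0.04 over all genes.

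Casp8 was the gene with the smallest unadjusted p between genotypes. After LPS it averaged 11.34 ± 0.26 in ΔTrspM and 11.77 ± 0.03 in control BMDMs (SD, n = 3 each), and all 3 ΔTrspM arrays lay below all 3 control arrays. The difference was -0.43 (SE 0.19, 95% interval -0.86 to -0.008, unadjusted p = 0.0464, adjusted p = 0.858 in limma, lower in 3 of 3 pairs). It was the only 1 of the 8 whose arrays did not overlap after LPS, beside 9.14% of all genes, and it fails the correction. Without LPS the difference was -0.27 (interval -0.70 to 0.15), and 0 of 8 genes had arrays that did not overlap, beside 7.32% of all genes.

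Bcl2 after LPS averaged 7.52 ± 0.14 in ΔTrspM and 6.92 ± 0.69 in control BMDMs (SD, n = 3 each). The arrays overlapped, with LPS-stimulated control replicate 2 at 6.18 the lowest of the 12. The difference was 0.59 (interval -0.25 to 1.44, adjusted p = 0.939 in limma) and 0.22 without that array. The other probe sets of Bcl2 gave differences between -0.69 and 0.64 after LPS, so their signs differed. They were dim there, with means of 4.80 to 6.33. Cflar differed by -0.09 after LPS (interval -0.67 to 0.48, adjusted p = 0.994 in limma) and by -0.29 without it (interval -0.86 to 0.29), and the second value was 0.05 without unstimulated control replicate 2.

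For the remaining genes the intervals set the bounds of what 3 arrays a group could show. After LPS the difference between ΔTrspM and control was 0.45 for Bcl2l1 (interval -0.37 to 1.28), 0.29 for Bbc3 (interval -0.32 to 0.90), 0.23 for Bcl2l11 (interval -0.49 to 0.96), 0.10 for Pmaip1 (interval -0.43 to 0.64) and -0.06 for Mcl1 (interval -0.42 to 0.30). Under arrays centred on their medians the difference changed sign for Bcl2l11, Bbc3 and Pmaip1, and with no scaling for these and for Bcl2 and Bcl2l1. The value of Bcl2l11 is that of its brightest probe set, and the 4 others gave -0.02, -0.08, -0.21 and -0.33.

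**Figure D4:**
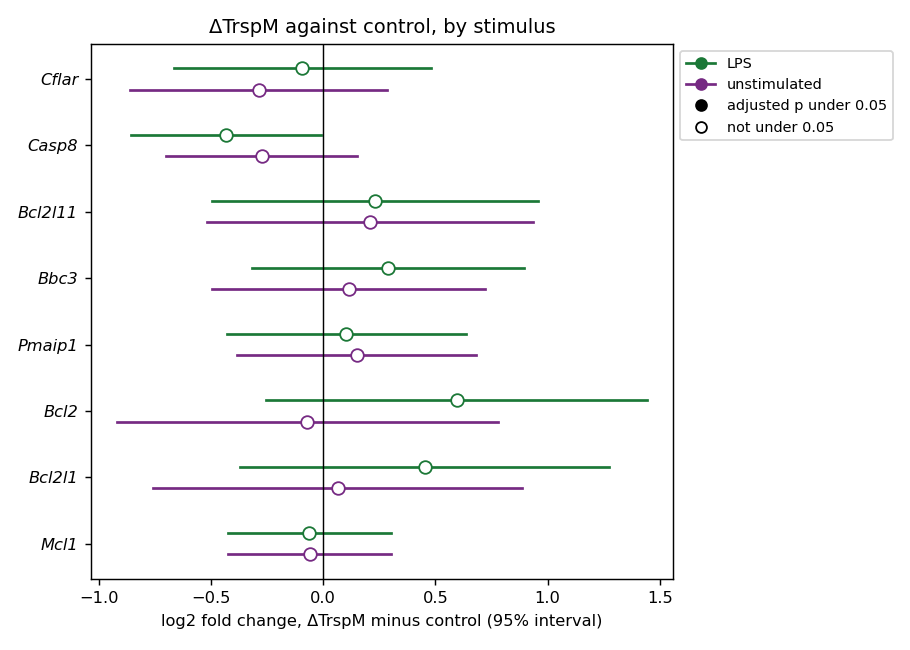
Log2 difference between ΔTrspM and control BMDMs with its 95% interval (x axis) of the 8 genes (rows), after LPS and without it. All points are open, none having an adjusted p under 0.05, and Casp8 after LPS, at -0.43, has the only interval that leaves out 0.

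The third question was whether the change after LPS differed between genotypes. The interaction was called for 0 of 8 genes and for 0% of all genes in limma, with an unadjusted p under 0.05 for 0 of 8 and for 555 of 18193 genes. For Cflar, ΔTrspM minus control, it was 0.19 (interval -0.62 to 1.00), and for Bbc3 it was 0.18 (interval -0.68 to 1.03). It was 0.66 for Bcl2 (SE 0.54, interval -0.53 to 1.86, adjusted p = 1.00 in limma), with changes after LPS of -1.54 in ΔTrspM and -2.20 in control BMDMs. The 4 other Bcl2 probe sets gave interactions of -0.43, -0.25, 0.44 and 0.60, and with no scaling that of the brightest was -0.0297. For Casp8 it was -0.16 (interval -0.76 to 0.44).

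Other genes of the pathway came from a list of 52, of which 43 were measured. After LPS 10 were called higher and 5 lower in ΔTrspM BMDMs, and 10 higher and 5 lower in control BMDMs, with all 15 shared in direction. Over all genes 7.29% were called higher and 8.51% lower in ΔTrspM, and 7.09% and 8.54% in control BMDMs. The median change was 0.22 in each genotype. Among genes of the death receptor pathway 5 of 11 were called higher in each genotype and none lower: Fas, the receptor of FAS ligand, rose by 4.32 in ΔTrspM and 3.92 in control BMDMs, Traf1, an adaptor of TNF receptors, by 5.61 and 5.76, and Mlkl, the executor of necroptosis, by 2.25 and 2.70. Before LPS, Fas was at 8.34 and Traf1 at 9.15 in control replicate 2, against 6.51 and 6.71 for Fas and 5.24 and 5.68 for Traf1 in the other control arrays. All 3 genes listed as NF-kB survival genes were called higher. Gadd45b rose by 3.13 in ΔTrspM and 3.47 in control BMDMs. Tnfaip3, which encodes the ubiquitin-editing enzyme A20, rose by 3.37 and 3.02. The group was listed as driven by NF-kB, with earlier results of these data known, so its calls are a description. Of 6 inhibitors of apoptosis and their antagonists 2 were called higher, among them Birc3, the gene of cIAP2, by 2.32 in ΔTrspM and 2.36 in control BMDMs.

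Of 6 further BH3-only genes, Bmf was the only one called, with changes of -2.33 in ΔTrspM and -2.31 in control BMDMs, but with the mean of its probe sets it was called in neither. Of 7 caspase and apoptosome genes listed 5 were measured, and 2 were called lower. Casp9, the initiator caspase of the mitochondrial route, changed by -1.93 in ΔTrspM and -2.14 in control BMDMs, and Casp2 changed by -0.90 and -0.96. Of 5 regulators of BH3-only genes 2 were called lower: Foxo3, a transcription factor that can drive Bcl2l11 and Bbc3, changed by -1.28 in ΔTrspM and -1.61 in control BMDMs, and E2f1 changed by -1.59 and -1.41. The calls of Birc3, Casp2, E2f1, Foxo3, Ier3 and Cyld were each lost in 1 genotype or both when some single array was left out. With the mean of the probe sets the call of Cyld was lost in both genotypes, that of Foxo3 in ΔTrspM and that of E2f1 in control BMDMs. With arrays centred on their medians the call of Cyld was lost in both. Cyld, a deubiquitinase gene of the death receptor group, rose by 0.68 in ΔTrspM BMDMs, and with no scaling its change there was -0.46. Of 6 other survival genes on the list only 2 were measured, Bcl2l2 and Bcl2l10, and neither was called after LPS. Bcl2l10 averaged 5.14 to 5.82 in the 4 groups, where a change is hard to see. None of the 2 other pore-forming genes or 3 genes of MCL1 turnover was called. Between ΔTrspM and control BMDMs 0 of 43 were called in either state. The smallest unadjusted p after LPS was that of Usp9x, at -0.43 (adjusted p = 0.850 in limma, lower in 3 of 3 pairs), followed by the pore-forming gene Bak1, at 0.45. Without LPS they were those of Tnfaip3, at -0.40, and Fasl, at -0.62, and for the interaction those of Fasl, at 1.06, and Bid, at 0.41, none of them called. Fasl averaged 4.85 to 5.47 in the 4 groups, near the lowest value of 4 that the scale allows.

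**Figure D5:**
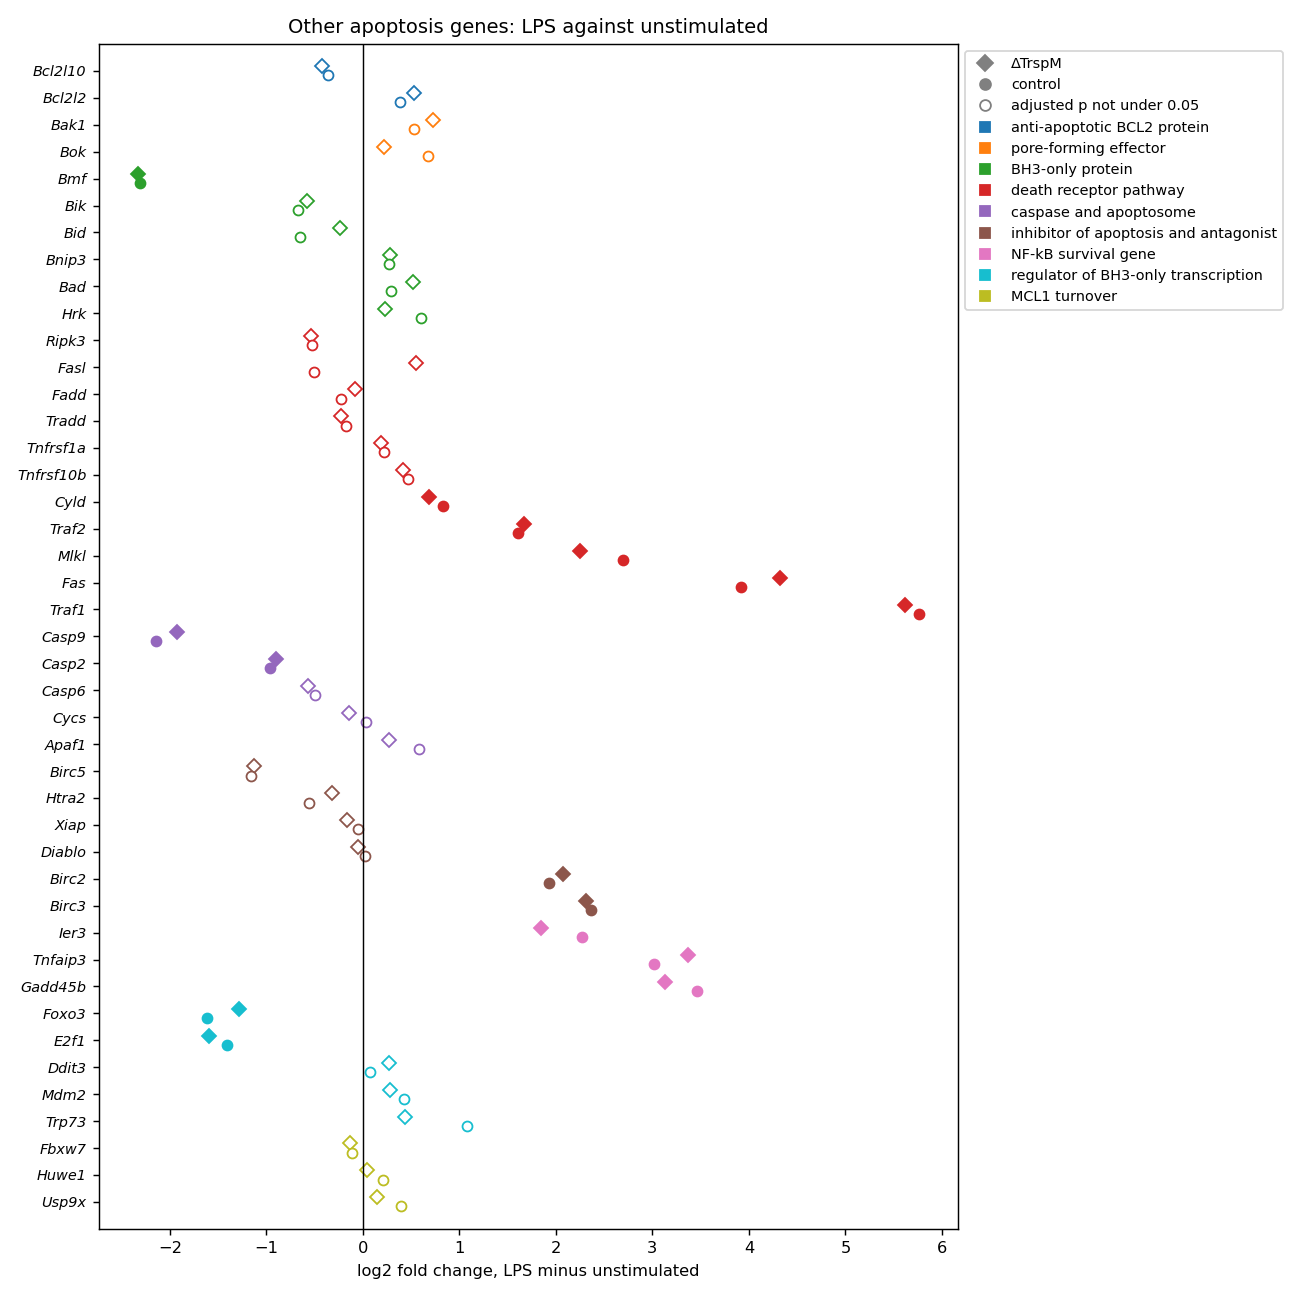
Log2 change after LPS (x axis) of the 43 other apoptosis genes measured (rows, coloured by role) in ΔTrspM (diamonds) and control BMDMs (circles), filled at an adjusted p under 0.05. The death receptor and NF-kB survival genes reach 5.61 in ΔTrspM and 5.76 in control BMDMs for Traf1, and Bmf and Casp9 lie lowest.

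The 2 genes whose 4 group means lay closest to those of Cflar, each gene centred on its own mean, were Pik3r6 and Jak2, with root mean square differences of 0.06 and 0.06 on the log2 scale. Jak2, a cytokine receptor kinase, had a difference after LPS of 2.60 in ΔTrspM and 2.63 in control BMDMs, beside 2.72 and 2.53 for Cflar. The closest to Bcl2 were Srpk2 and Elovl6, at 0.03 and 0.06, with differences after LPS of -1.53 and -1.63 in ΔTrspM and -2.29 and -2.05 in control BMDMs. The likeness was taken over 4 groups and 12 arrays, which were scaled together, and is a description.

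The promoter windows, 250 bases before to 50 after the start, were searched on both strands for 3 motifs. The consensus NF-kB motif was found in 2 of the 13 windows of the listed genes, beside 8.46% of all 32851 windows. The stretches around the first match are shown 5′ to 3′ on the strand of the gene, with the match in capitals, since Cflar and Bcl2, the genes called after LPS in both genotypes, have no match in their windows.
Bbc3: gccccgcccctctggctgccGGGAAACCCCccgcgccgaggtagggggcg
Bcl2l1: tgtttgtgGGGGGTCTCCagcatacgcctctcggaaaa
The match lay 137 bases before 1 of 3 starts of Bbc3 on chromosome 7, where the letters fitted the motif on both strands and overlapped a further match at the next base, and 242 bases before 1 of 3 starts of Bcl2l1 on chromosome 2. The AP-1 letters TGANTCA and the STAT letters TTCNNNGAA were in 0 of the 13 windows, beside 7.81 and 8.3% of all windows, so no NF-kB match overlapped either. A match is a stretch of letters and not a measured binding site, and the absence of one says only that these letters are not in the window.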

How the data were processed

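BMDM RNA from 4 groups was read on GeneChip Mouse 430 2.0 arrays, 3 arrays a group. Normalization was done by the authors in Expression Console, and the deposited values are linear signal intensities of 45101 probe sets, how they were summarized not being given in the sources. Control probe sets (64) and those with several symbols (932) or none (9160) were left out. Signals were quantile-normalized, 16 was added and log2 was taken. For each gene the probe set with the highest mean was used (18193 genes).

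Tests were run in limma (3.58.1, R 4.3.3) on all 4 groups together, which left 8 residual degrees of freedom, with Benjamini-Hochberg adjustment over all genes and a threshold of 0.05. The fit was also run on simulated data whose errors were independent between arrays and of equal spread on all arrays of a gene. Those data held no effect of replicate number and no dim array, so that run says nothing of either. With 3 arrays against 3 the smallest exact two-sided p is 0.1, so the p-values rest on limma's pooled spread. After group means were removed, same-numbered arrays of the groups compared correlated at 0.126 to 0.442 in all 12 pairs (over 0.1 required). Those of the groups not compared correlated at 0.0668 to 0.271, with 5 of 6 pairs over 0.1. What a shared number stands for is not given in the sources, and whether cultures or array runs were shared was not tested. A fit with the number as a block, with 6 residual degrees of freedom, was added. Calls are from the fit without the block unless another fit is named. The number of arrays limits the precision.

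The genes, lists and tests were chosen with earlier results of these data known. All measured genes of the chosen set are described. Other pathway genes were named where they were among the 6 largest rises or falls called in control BMDMs after LPS, or had the 2 smallest p-values in a comparison with no call. Outside this rule, Cyld and Ier3 were named because their calls moved between settings. Fbxw7 and Huwe1 were named as genes of MCL1 turnover, and Bcl2l2 and Bcl2l10 as the survival genes measured beside the chosen set. The alternatives tried were 2 other scalings, a pseudocount of 1, a filter at a mean log2 signal of 6, the mean of or all probe sets, the replicate block, the trend and robust options of limma, only the arrays compared, the methods' t-test, and leaving out each array. Promoter sequences are those of RefSeq (GRCm38.p6).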

Additional observations from a re-analysis of the deposited data

How the results depend on the processing

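The count of members of the set called after LPS was 3 in ΔTrspM and 2 in control BMDMs. With the replicate block it was 5 in control BMDMs, where calls over all genes rose too, and in ΔTrspM BMDMs Bcl2l11 was added. By the methods' t-test after adjustment it was 1 in each genotype, Cflar, and at an unadjusted p under 0.01 it was 1 in control BMDMs. Leaving out each array gave 1 to 3 in ΔTrspM and 2 to 3 in control BMDMs. The block changed no call between genotypes and no interaction. Over all alternatives, 695 values of single genes kept their direction and their side of the threshold, 18 lost and 10 gained a call, and 33 changed sign. Every sign change was in a difference not called under the alternative that turned it, and of the differences of the 8 genes called at first only that of Bbc3 in ΔTrspM BMDMs changed sign.

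With no scaling the median of all genes shifted to -0.73 after LPS in ΔTrspM and -0.25 in control BMDMs, and to -0.60 between genotypes after LPS and -0.59 for the interaction. The change after LPS in ΔTrspM BMDMs was then -0.21 for Mcl1, -0.37 for Bbc3, -0.64 for Pmaip1 and -0.92 for Casp8. The difference between ΔTrspM and control BMDMs was -0.0724 for Bcl2l1 and -0.0393 for Bbc3 without LPS, and -0.22 for Bcl2, -0.47 for Bcl2l1, -0.62 for Bcl2l11, -0.63 for Bbc3 and -0.75 for Pmaip1 after it, and the interaction of Bcl2 was -0.0297. With arrays centred on their medians Casp8 changed by -0.21 after LPS in ΔTrspM BMDMs, and Bcl2l11, Bbc3 and Pmaip1 differed by -0.11, -0.12 and -0.24 between genotypes after LPS. With the mean of the probe sets Bcl2l1 differed by -0.0745 without LPS and Bcl2l11 by -0.0819 after it.

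Leaving out each array moved the change of Casp8 after LPS in ΔTrspM BMDMs between -0.000604 and 0.25. Without LPS the difference between ΔTrspM and control BMDMs lay between -0.42 and 0.17 for Bcl2, -0.19 and 0.34 for Bcl2l1, -0.0253 and 0.38 for Bbc3, -0.00803 and 0.30 for Pmaip1, and -0.49 and 0.0531 for Cflar. After LPS it lay between -0.11 and 0.0221 for Mcl1, -0.00918 and 0.50 for Bcl2l11, and -0.00966 and 0.32 for Pmaip1. Over all genes, 1326 were called higher and 1548 lower after LPS in ΔTrspM, and 1290 and 1554 in control BMDMs. With the block these were 1689 and 2397 in ΔTrspM and 1664 and 2444 in control BMDMs, by the t-test after adjustment 758 and 618 in ΔTrspM and 427 and 397 in control BMDMs, with no scaling 398 and 495 in control BMDMs, and with only the arrays compared 995 and 1028 in control BMDMs. Of the 15 other apoptosis genes called in each genotype, 9 kept the call with no scaling in ΔTrspM BMDMs and 10 in control BMDMs, and by the t-test after adjustment 12 and 5 did. The change of Cyld in ΔTrspM BMDMs turned to -0.46 with no scaling. Leaving out 1 array kept 11 to 15 in ΔTrspM and 12 to 15 in control BMDMs. The genes lost were among Cyld, Casp2, Ier3, Foxo3 and Birc3 in ΔTrspM and Birc3, Casp2 and E2f1 in control BMDMs. The cause of these shifts was not tested. LPS-stimulated ΔTrspM replicate 2, the dimmest array, limits what can be said of dim genes there.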
